A study of Neurospora crassa with 2 samples.

Results

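The genes described here encode enzymes of glycolysis, the route from glucose to pyruvate, in the filamentous fungus Neurospora crassa. They were chosen by locus tag, as the genes listed for hexokinase, glucokinase, phosphoglucose isomerase, phosphofructokinase, aldolase, glyceraldehyde-3-phosphate dehydrogenase (GAPDH), phosphoglycerate kinase, enolase and pyruvate kinase. These are 9 of the 9730 genes measured, and all 9 were found. Triose phosphate isomerase and phosphoglycerate mutase are not among the listed enzymes, so sums and ranges below leave out these steps. Whether genes given below without a role encode them was not settled here. RNA was sequenced from mycelia of a Δ3βGΔncw-1 strain and a Δ3βG strain, with 1 library per genotype. The Δ3βGΔncw-1 strain carries deletions of ncw-1, the gene of a cell wall protein that is not anchored, and of 3 β-glucosidase genes (gh1-1, gh3-3, gh3-4). In Δ3βG the same β-glucosidase genes are deleted and ncw-1 is present, so neither library comes from an intact strain. Both cultures were grown for 20 h in minimal medium and moved for 4 h to Vogel's salts with 1% cellobiose. The comparison sets transcript levels on cellobiose without ncw-1 beside those with it, when these β-glucosidases are missing. With 1 library per genotype and the further differences given below, it does not isolate the part of ncw-1.

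Glycolysis takes place in the cytosol. Its upper part spends ATP to phosphorylate and split a hexose, and its lower part oxidizes the triose phosphates, recovers ATP and ends in pyruvate. The steps of the glucose kinases, phosphofructokinase and pyruvate kinase run in 1 direction in the cell, whereas the enzymes between them work both ways and also serve gluconeogenesis. Cellobiose reaches this pathway once β-glucosidases have cleaved it to glucose.

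The libraries differed in more than ncw-1. The RPKM of ncw-1 itself (NCU05137; RPKM are reads scaled to gene length and library size) was 2.62 in Δ3βGΔncw-1 and 435 in Δ3βG, as labelled. Both strains carry an a at the end of their genotype label, yet 3 of 4 mat A genes were detected in Δ3βGΔncw-1 (4 genes summed, 103.7 RPKM) and all 4 were listed at 0 in Δ3βG. In Δ3βGΔncw-1 ccg-4 had 87.9 RPKM and matA-1 15.4 RPKM. There matA-3 had only 0.27 RPKM, below the 0.35 RPKM of the deleted gene gh3-4. The 2 genes listed for mat a, mfa-1 and NCU01961, summed to 39.2 RPKM in Δ3βGΔncw-1 and 143 RPKM in Δ3βG, but they differed in opposite directions. The lower sum in Δ3βGΔncw-1 came from mfa-1 (34.98 RPKM in Δ3βGΔncw-1 and 140.7 RPKM in Δ3βG). NCU01961 was low in both libraries and higher in Δ3βGΔncw-1 (4.24 RPKM, and 2.37 RPKM in Δ3βG). This gene has no symbol in the reference, and whether it marks mat a was not checked. Its direction is therefore not read as one of mating type. The summed RPKM of 6 genes that mark conidiating cells was 2521 in Δ3βGΔncw-1 and 61281 in Δ3βG. Most of it came from eas (1746 and 60350 RPKM). Of these 6, 3 were 2-fold or more lower in Δ3βGΔncw-1 (eas, fl and acon-3), and none was at 0 in either library. The other 3 were neither higher nor lower by that limit. Among them con-6 was lower in Δ3βGΔncw-1 (157 and 284 RPKM), whereas con-8 (514 and 487 RPKM) and con-10 (90.0 and 66.1 RPKM) were higher there. The hydrophobin gene eas alone held 0.355% of all RPKM in Δ3βGΔncw-1 and 12.8% in Δ3βG. The part of mating type and of conidiating cells in every difference below was not tested. In RNA from whole mycelia, a change in the share of a cell type and a change in RNA per cell cannot be told apart. With 1 library per genotype there is no spread between cultures and no test; the 95% intervals are exact, come from whole reads recovered from the RPKM, and cover counting error only.

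Transcripts of 3 glycolytic enzymes were at least 2-fold more abundant in Δ3βGΔncw-1 than in Δ3βG, and none was at least 2-fold less abundant. The 3 were glucokinase, aldolase and phosphoglycerate kinase. Phosphoglucose isomerase, GAPDH, enolase and pyruvate kinase formed a middle group with RPKM ratios between 1.61 and 1.70. Hexokinase and phosphofructokinase had ratios of 1.01 and 1.11. All 9 genes were above 10 RPKM in both libraries, so the minimum of 10 RPKM in either library, used to leave out low genes, fixed the direction of none. The limit was a log2 ratio of at least 1, taken on RPKM + 1. By this rule 33.3% of the glycolytic genes were higher in Δ3βGΔncw-1 and 0 were lower, where 8.08% and 11.1% of all 5988 genes with 10 RPKM or more in a library were.

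**Figure D1:**
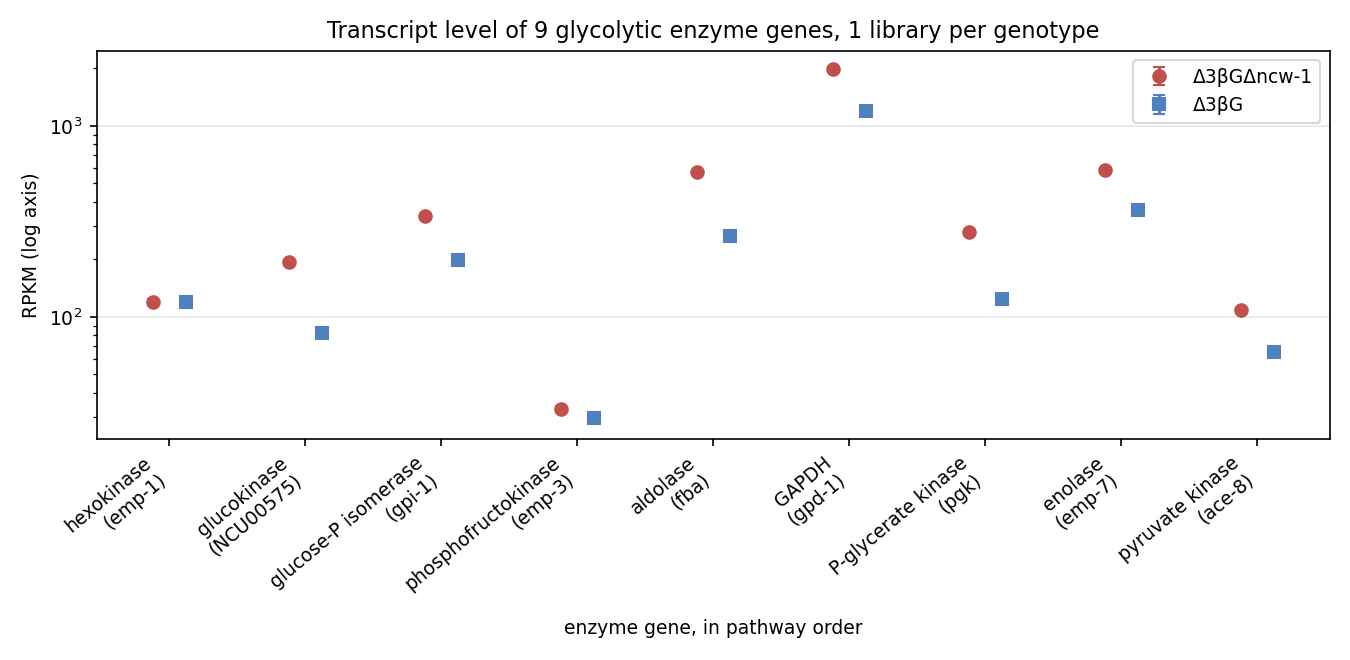
RPKM of each enzyme gene (log axis) in the Δ3βGΔncw-1 library (circles) and the Δ3βG library (squares), in pathway order, with 95% counting intervals that are mostly smaller than the symbols. GAPDH had the highest value in both libraries (1985 and 1194 RPKM) and phosphofructokinase the lowest (32.8 and 29.5 RPKM).

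Glucose is phosphorylated by hexokinase, which also accepts other hexoses, and by glucokinase, which is more selective for glucose. The hexokinase gene emp-1 (NCU02542) had 120.1 RPKM in Δ3βGΔncw-1 and 119 RPKM in Δ3βG. The interval of this ratio of 1.01 (95% interval 0.971 to 1.05) included 1. Its direction depended on the scaling, with a ratio of 0.969 once the libraries were scaled to equal RPKM sums and 1.26 relative to the median gene. The glucokinase gene NCU00575 had 195 RPKM in Δ3βGΔncw-1 and 82.1 RPKM in Δ3βG, a ratio of 2.37 (2.30 to 2.44) and the highest among the 9 genes. The order of these genes was thus not the same in the 2 libraries. Glucokinase RPKM was 1.62 times that of hexokinase in Δ3βGΔncw-1 (1.57 to 1.67) and 0.689 times in Δ3βG (0.665 to 0.714). Both kinase genes together had 315 RPKM in Δ3βGΔncw-1 and 201 RPKM in Δ3βG, a ratio of 1.56 that lay close to the middle group.

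The remaining enzymes of the upper part turn glucose 6-phosphate into triose phosphates. Phosphoglucose isomerase, which makes fructose 6-phosphate, is encoded by gpi-1 (NCU07281), which had 338 RPKM in Δ3βGΔncw-1 and 199 RPKM in Δ3βG (ratio 1.70, 1.65 to 1.74). Phosphofructokinase adds the second phosphate and commits the sugar to glycolysis. Its gene emp-3 (NCU00629) had 32.8 RPKM in Δ3βGΔncw-1 and 29.5 RPKM in Δ3βG, a ratio of 1.11 (1.06 to 1.17). The interval of emp-3 lay below those of the 7 genes with larger ratios, and it included 1 (0.983 to 1.09) when the libraries were scaled to equal RPKM sums without the 5 highest genes of each. Aldolase splits fructose 1,6-bisphosphate, and its gene fba (NCU07807) had 575 RPKM in Δ3βGΔncw-1 and 265 RPKM in Δ3βG (ratio 2.17, 2.12 to 2.21). The RPKM of phosphofructokinase was therefore 0.0571 times that of aldolase, the enzyme of the next step, in Δ3βGΔncw-1 (0.0549 to 0.0593) and 0.111 times in Δ3βG (0.106 to 0.116).

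In the lower part, GAPDH oxidizes glyceraldehyde 3-phosphate, and its transcript was the most abundant of the pathway. The gene gpd-1 (NCU01528), also known as the clock-controlled gene ccg-7, had 1985 RPKM in Δ3βGΔncw-1 and 1194 RPKM in Δ3βG. Its ratio of 1.66 (1.64 to 1.68) had the narrowest interval, resting on 59850 and 36871 reads. Phosphoglycerate kinase makes the ATP of the following step, and pgk (NCU07914) had 279 RPKM in Δ3βGΔncw-1 and 124 RPKM in Δ3βG, a ratio of 2.24 (2.17 to 2.31). The interval of pgk did not overlap that of gpd-1, although the enzymes catalyse consecutive steps. Enolase forms phosphoenolpyruvate. Its gene emp-7 (NCU10042) had 585 RPKM in Δ3βGΔncw-1 and 364 RPKM in Δ3βG, a ratio of 1.61 (1.58 to 1.64). Pyruvate kinase, which yields pyruvate and ATP, is encoded by ace-8 (NCU06075), with 109 RPKM in Δ3βGΔncw-1 and 65.7 RPKM in Δ3βG (ratio 1.66, 1.61 to 1.71).

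**Figure D2:**
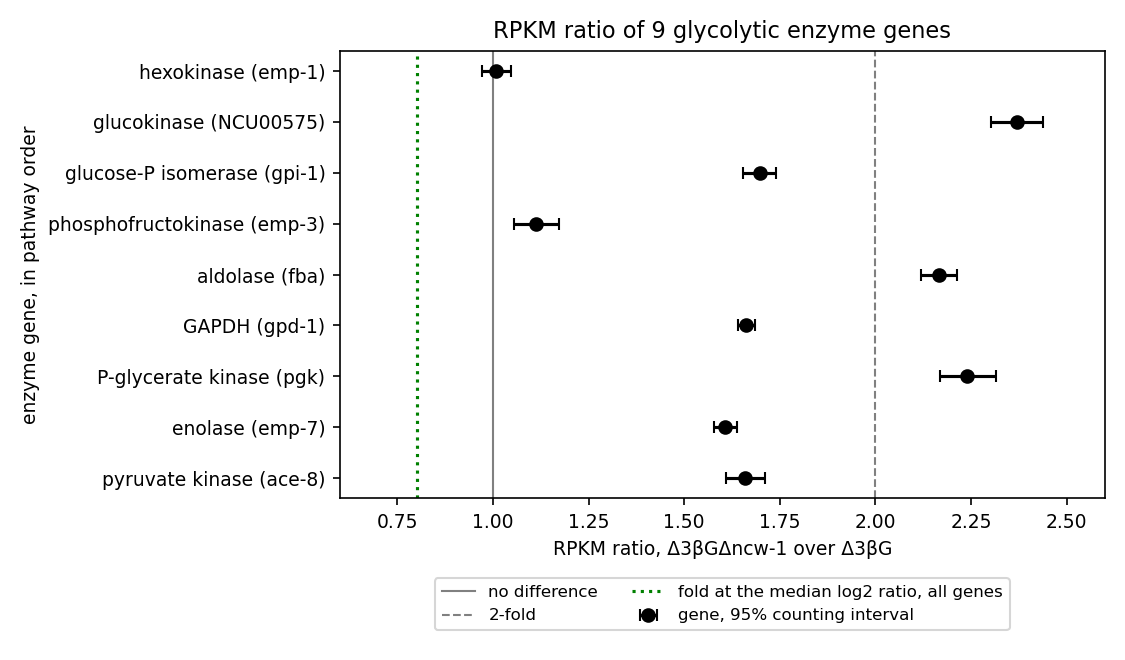
Ratio of RPKM in Δ3βGΔncw-1 over Δ3βG for each enzyme gene in pathway order, with 95% counting intervals and lines at 1, at 2 and at the fold of the median log2 ratio of all genes (0.801). Glucokinase, phosphoglycerate kinase and aldolase lie right of 2, 4 genes lie between 1.61 and 1.70, and phosphofructokinase and hexokinase lie near 1.

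Ordered by ratio, the genes fell into 4 groups by the overlap of intervals between neighbours. The intervals of glucokinase, phosphoglycerate kinase and aldolase overlapped from each to the next, as did those of gpi-1, gpd-1, ace-8 and emp-7. Genes further apart within a group could still differ beyond counting error. The interval of glucokinase (2.30 to 2.44) lay above that of aldolase (2.12 to 2.21), and that of gpi-1 (1.65 to 1.74) above that of emp-7 (1.58 to 1.64). The intervals of neighbours did not overlap between aldolase (2.17) and gpi-1 (1.70), between emp-7 (1.61) and emp-3 (1.11), and between emp-3 and emp-1 (1.01). Genes of the upper part stood in every group, and those of the lower part in the groups with the larger ratios. Over the 4 listed genes of irreversible steps the ratios ran from 1.01 to 2.37, and over the 5 listed genes of reversible steps from 1.61 to 2.24. Summed RPKM of the 5 genes from the glucose kinases to aldolase was 1259.9 in Δ3βGΔncw-1 and 695 in Δ3βG (ratio 1.81), and that of the 4 genes from GAPDH to pyruvate kinase was 2958 and 1748 (ratio 1.69).

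The order of transcript levels was nearly the same in both libraries. From high to low it ran GAPDH, enolase, aldolase, phosphoglucose isomerase and phosphoglycerate kinase in each, with pyruvate kinase and phosphofructokinase at the end, and 1 pair of genes, glucokinase and hexokinase, changed places. In Δ3βGΔncw-1 the intervals of enolase (578 to 592 RPKM) and aldolase (568 to 582 RPKM) overlapped. In Δ3βG those of phosphoglycerate kinase (121 to 128 RPKM) and hexokinase (116 to 122 RPKM) did. No other neighbours in either order had overlapping intervals. The highest and the lowest member were 60.5-fold apart in Δ3βGΔncw-1 and 40.5-fold apart in Δ3βG.

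Summed over the 9 genes, RPKM was 4217 in Δ3βGΔncw-1 and 2443 in Δ3βG, a ratio of 1.73, or 1.79 without gpd-1. These genes took 0.887% of the reads in Δ3βGΔncw-1 (0.883% to 0.891%) and 0.509% in Δ3βG (0.506% to 0.512%). GAPDH made up 47.1% of the summed RPKM in Δ3βGΔncw-1 and 48.9% in Δ3βG. Aldolase had 13.6% of the sum in Δ3βGΔncw-1 and 10.9% in Δ3βG, the largest gain in share, and hexokinase had 2.85% and 4.88%, the largest loss. Among all genes ordered by RPKM, 6 of the 9 were within the highest 500 in Δ3βGΔncw-1 and 4 in Δ3βG.

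Most other genes had lower RPKM in Δ3βGΔncw-1, which the glycolytic genes did not share. The median log2 ratio of RPKM + 1 was 0.73 over the 9 genes and −0.32 over the 5988 genes. A log2 ratio above 0 was found in 30.6% of all genes and in each of the 9, although that of emp-1 was near 0 and was negative once the libraries were scaled to equal RPKM sums. The log2 ratios of emp-1 and emp-3 were higher than those of 70.0% and 76.0% of all genes, those of the middle group higher than 88.7% to 89.7%, and that of NCU00575 higher than 93.5%. Relative to the median gene, 7 of the 9 passed 2-fold toward higher values in Δ3βGΔncw-1 and 0 toward lower values, beside 11.3% and 5.73% of all genes. The middle group lay close to this limit, with log2 ratios relative to the median gene between 1.00 for emp-7 and 1.08 for gpi-1, and emp-1 and emp-3 stayed below it at 0.33 and 0.47.

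**Figure D3:**
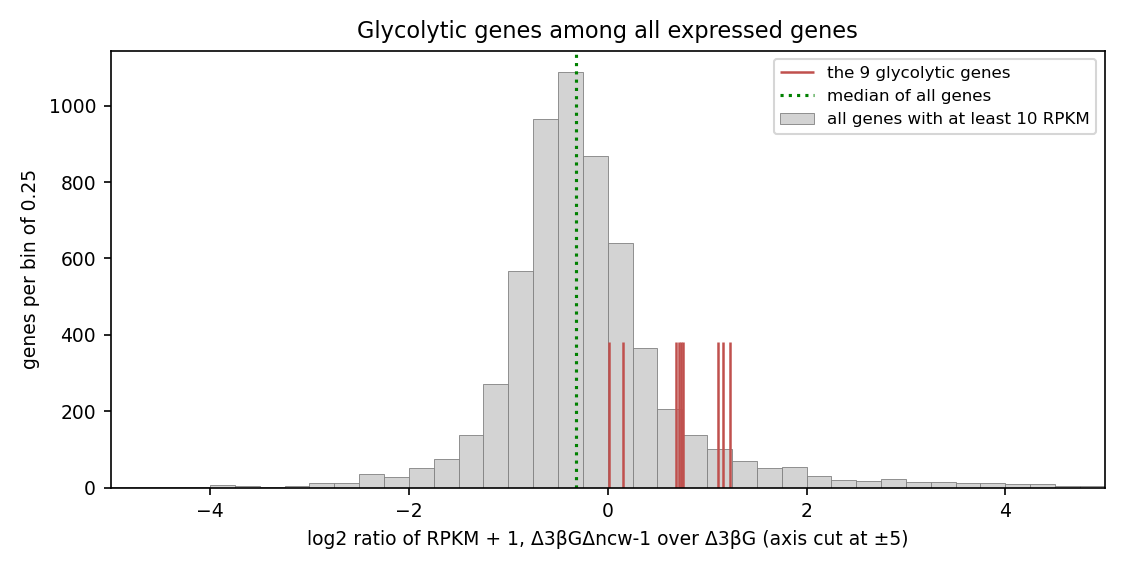
Histogram of log2 ratios (Δ3βGΔncw-1 over Δ3βG, on RPKM + 1) for the 5988 genes that had 10 RPKM or more in a library, with the 9 glycolytic genes as vertical lines and the median of all genes (−0.32) dotted. All 9 lines lie right of the median, and 3 lie past a log2 ratio of 1.

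**Figure D4:**
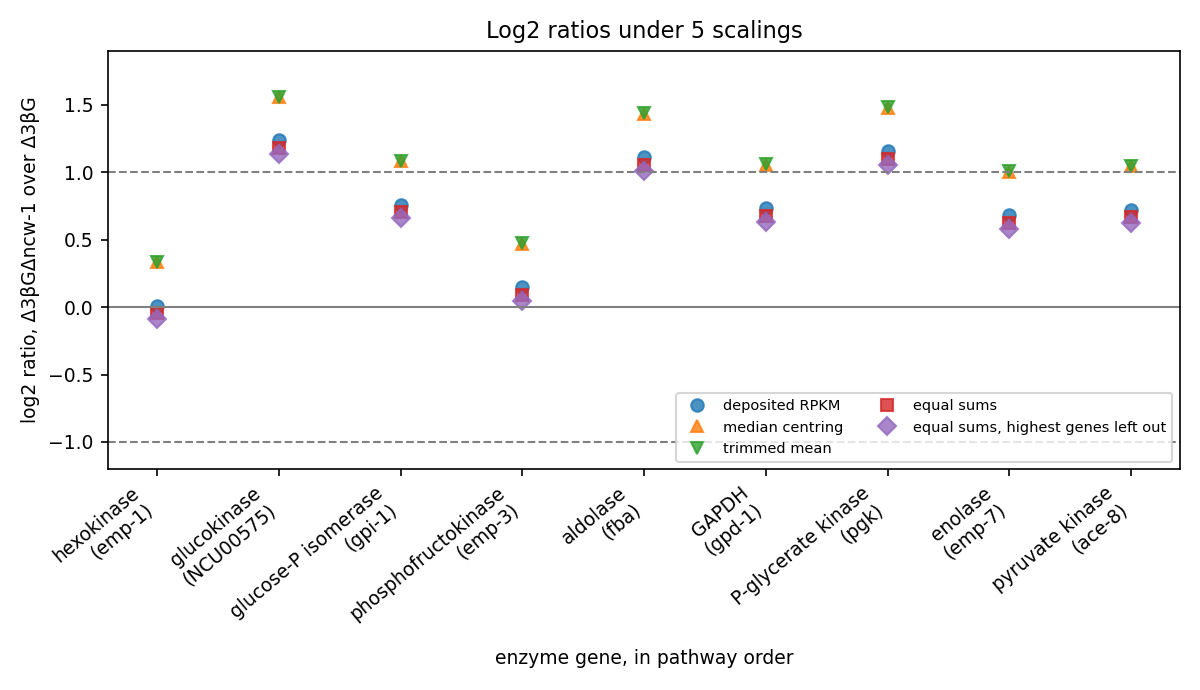
Log2 ratio of each enzyme gene, Δ3βGΔncw-1 over Δ3βG, as deposited and under 4 other scalings, with dashed lines at −1 and 1. The glucokinase, aldolase and phosphoglycerate kinase genes lie above 1 under each scaling, and the middle group passes 1 under median centring and trimmed mean scaling. Aldolase comes close to the line, at 1.01, with equal sums without the 5 highest genes of each library. Its ratio there was 2.02, with a counting interval of 1.98 to 2.06 that included 2.

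The genes of 2 enzymes that oppose glycolysis differed in the other direction. No gene was identified here for pyruvate carboxylase, another enzyme of gluconeogenesis. Fructose bisphosphatase undoes the phosphofructokinase step, and its gene fbp-1 (NCU04797) had 26.7 RPKM in Δ3βGΔncw-1 and 103 RPKM in Δ3βG. Phosphoenolpyruvate carboxykinase works against pyruvate kinase in gluconeogenesis, and its gene acu-6 (NCU09873, also pck-1) had 56.0 RPKM in Δ3βGΔncw-1 and 356 RPKM in Δ3βG. The RPKM of phosphofructokinase was 1.23 times that of fbp-1 in Δ3βGΔncw-1 (1.14 to 1.33) and 0.287 times in Δ3βG (0.273 to 0.302). Pyruvate kinase RPKM was 1.94 times that of acu-6 in Δ3βGΔncw-1 (1.86 to 2.03) and 0.185 times in Δ3βG (0.179 to 0.190). In both pairs the glycolytic gene had the higher RPKM in Δ3βGΔncw-1 and the lower in Δ3βG. The 2 pairs differed in how: the RPKM of fbp-1 was 3.84-fold lower in Δ3βGΔncw-1 (3.57 to 4.14) beside a ratio of 1.11 for emp-3, and that of acu-6 was 6.35-fold lower (6.10 to 6.61) beside 1.66 for ace-8. Ratios within a library are not moved by scaling, because both genes are scaled alike.

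**Figure D5:**
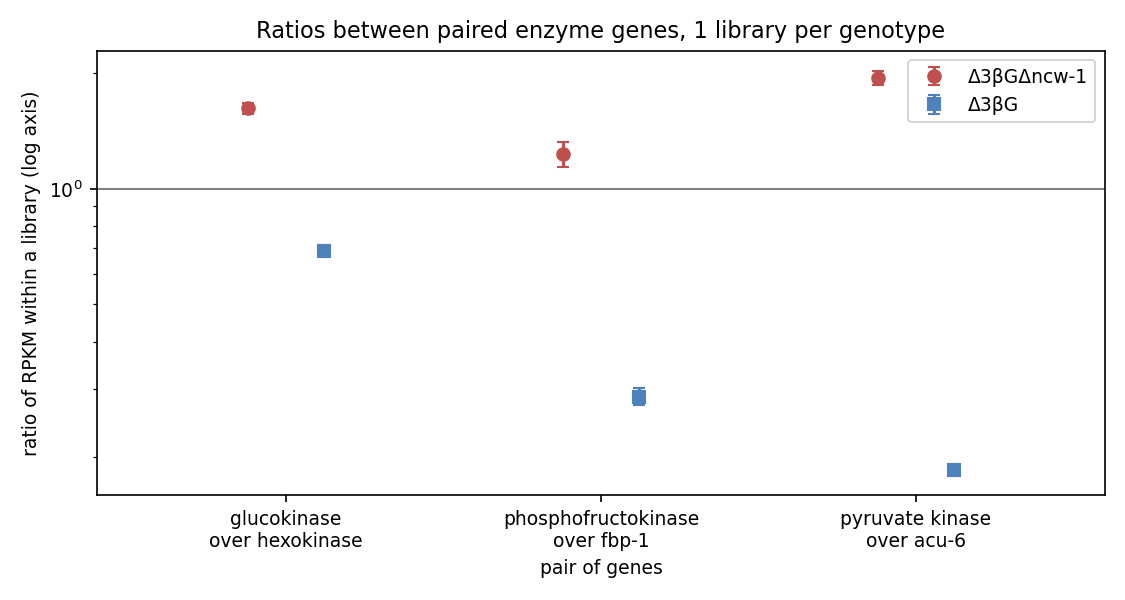
Ratio of RPKM between paired genes within each library (log axis), Δ3βGΔncw-1 as circles and Δ3βG as squares, with exact 95% counting intervals and a line at 1. All 3 ratios are above 1 in Δ3βGΔncw-1 (1.62, 1.23 and 1.94) and below 1 in Δ3βG (0.689, 0.287 and 0.185).

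Around the 9 enzymes, 10 further genes were listed for the pathway and its branches, all with at least 10 RPKM. By the 2-fold limit, 1 of the 10 had a higher RPKM in Δ3βGΔncw-1, 2 had a lower one and 7 passed in neither direction. Of all genes, 8.08% were higher and 11.1% lower, and 10 genes are too few to compare shares. Their median log2 ratio was 0.047. Set against the median gene, the counts were 2 higher and 2 lower, beside 11.3% and 5.73% of all genes. The gene that was higher on both scales was the alcohol dehydrogenase gene adh-1 (NCU01754), with 636 RPKM in Δ3βGΔncw-1 and 139.7 RPKM in Δ3βG (ratio 4.55, 4.43 to 4.68), and the lower genes were fbp-1 and acu-6.

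The listed genes of pyruvate use differed among themselves. Pyruvate decarboxylase, which with alcohol dehydrogenase forms the route to ethanol, is encoded by cfp (NCU02193, also pdc-1), with 22.01 RPKM in Δ3βGΔncw-1 and 34.2 RPKM in Δ3βG (ratio 0.644, 0.599 to 0.692). The pyruvate dehydrogenase complex needs ace-2 (NCU06482) and ace-3 (NCU03004). The RPKM of ace-2 was 49.5 in Δ3βGΔncw-1 and 80.2 in Δ3βG (ratio 0.618, 0.585 to 0.652). That of ace-3 was 31.0 in Δ3βGΔncw-1 and 34.2 in Δ3βG (ratio 0.905, 0.839 to 0.975). Relative to the median gene the log2 ratios of cfp, ace-2 and ace-3 were −0.29, −0.36 and 0.18, so the direction of ace-3 depended on the scaling. Those of the 10 listed genes that were given no role here had ratios above 1. These were 1.85 for NCU01328 (432 RPKM in Δ3βGΔncw-1 and 233 RPKM in Δ3βG), which passed 2-fold relative to the median gene, 1.499 for NCU07550 (301 RPKM in Δ3βGΔncw-1 and 201 RPKM in Δ3βG), 1.37 for ppm-2 (NCU03100, 412 RPKM in Δ3βGΔncw-1 and 300.2 RPKM in Δ3βG) and 1.18 for NCU09111 (187 RPKM in Δ3βGΔncw-1 and 159 RPKM in Δ3βG).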

How the data were processed

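TopHat2 2.0.8b, DESeq 1.5.1 and HTSeq 0.5.4p2 are named in the submitters' processing notes, without their roles. Values were deposited as RPKM, with a column for each library, per the file headers. Genome build, annotation and strand handling were not given in the sources used here. Columns were matched to libraries by sample identifier, and 0 were unused. Symbols came from the reference gene table of assembly NC12, and enzyme names of the 9 members from the list of members. The reference gives no roles, so those stated for other genes are background and were not checked here. The members, gene lists and limits were chosen with earlier results of these data known. The genes named by rule are the 9 members, those used to check the libraries, the opposing gluconeogenic genes and branch genes past 2-fold; emp-6 and the other listed branch genes were named after their values were seen.

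Library totals of 20019350 reads (Δ3βGΔncw-1) and 20510798 reads (Δ3βG) were recovered as the values that make RPKM times gene length whole, within 1e-06 reads plus 1e-09 of the number. Each member had 1 model length, of at least 50% of its reference span, that gave whole reads in both libraries, between 2857 and 59850 in Δ3βGΔncw-1 and between 2630 and 36871 in Δ3βG. The recovery was tested on simulated data. Intervals are exact Clopper-Pearson intervals at 95%: of ratios conditional on summed reads, and of levels and shares among all reads. Reads are not independent molecules. Log2 ratios used a pseudocount of 1 RPKM, which understates low genes; ratios without the prefix log2 used none. The 4 deleted genes were left out of counts over all genes. Alternatives were pseudocounts, minimum values, size limits and scalings. SciPy 1.17.1, NumPy 2.4.6 and pandas 2.3.3 were used. Promoter and protein sequences were not analysed here.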

Additional observations from a re-analysis of the deposited data

How the results depend on the processing

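The count of glycolytic genes at least 2-fold higher in Δ3βGΔncw-1, 3 as reported, was 7 under median centring, 7 under trimmed mean scaling, 7 at a limit of 1.5-fold and 0 at a limit of 3-fold, and 3 under the other settings run; the count at least 2-fold lower was 0 under each. The median log2 ratio of 0.73 became 1.05 under median centring, 1.06 under trimmed mean scaling, 0.68 with equal sums and 0.63 with equal sums after the 5 highest genes of each library were left out. The ratio of summed RPKM, 1.73, became 2.16, 2.16, 1.66 and 1.61 under the same 4 scalings. These moves follow from the shift each scaling adds to every log2 ratio (0.32, 0.33, −0.057 and −0.10). Of 63 values of single genes under the alternatives, 35 moved beyond their counting interval and 2 were below 0, both of emp-1 (−0.045 and −0.091 under the equal-sum scalings). The setting with no pseudocount was added after seeing the data. No paired analysis was possible because each genotype had 1 library, and for the same reason no library could be left out. Between 2630 and 59850 reads lay behind each value, so counting error is small and variation between cultures is the unmeasured part.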

Other observations

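Of 18 neighbours of the 9 glycolytic genes in the reference order, 13 had at least 10 RPKM in either library; 0 of these passed 2-fold toward higher values in Δ3βGΔncw-1 and 1 toward lower values, where 8.08% and 11.1% of all genes did. Their median log2 ratio was −0.43, beside −0.32 over all genes, with values between −1.08 and 0.50. The highest was that of NCU02543, with 10.3 RPKM in Δ3βGΔncw-1 and 6.97 RPKM in Δ3βG. NCU02543 thus met the minimum only in the library where it was higher. It lies next to emp-1, and the log2 ratio of emp-1 was 0.011. Reference spans of 4 glycolytic genes overlapped those of neighbours, and reads there may not be separable where strand was not used. The overlapping neighbours were NCU14040 for NCU00575 (not analysed here), NCU00630 for emp-3 (5.13 RPKM in Δ3βGΔncw-1 and 7.40 RPKM in Δ3βG), NCU07913 for pgk (78.3 RPKM in Δ3βGΔncw-1 and 85.3 RPKM in Δ3βG) and, for ace-8, NCU06074 (listed at 0 in both) and NCU06076 (32.5 RPKM in Δ3βGΔncw-1 and 69.8 RPKM in Δ3βG). The reference lists 2 transcripts each for emp-1, fba, emp-7 and ace-8, which the values per gene do not separate. The gene emp-6 (NCU02252), which shares its symbol's stem with emp-1, emp-3 and emp-7 and was looked up after the other values were seen, had 39.2 RPKM in Δ3βGΔncw-1 and 29.4 RPKM in Δ3βG, a ratio of 1.33 (1.24 to 1.43).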
